A study of Mus musculus with 16 samples.

Results

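How the response of dendritic cells to Lactobacillus acidophilus NCFM at 18 h differed from the response at 4 h was measured as a difference of effects. Dendritic cells from the bone marrow of wild-type C57BL/6 mice, grown with the cytokine GM-CSF and taken while immature, received this strain of a gut bacterium at 10 µg/ml, or did not receive it, and were harvested after 4, 10 or 18 h. The comparison used 11 of the 16 arrays of the series: 3 with NCFM and 3 control arrays at 4 h, and 3 with NCFM and 2 control arrays at 18 h, where the control has no array numbered 3. All 4 groups share the strain of mouse, the GM-CSF culture and the medium, and fresh GM-CSF was also given during the exposure. Each array holds bulk RNA, so fewer cells of a type and less RNA per cell cannot be told apart. The labels do not say whether the numbered arrays are separate animals or cultures. The p-values measure the spread between these samples, which may be technical in part. In every group array 1 differed from the others in Xist and Y-linked genes, so it is not a repeat of the same cells.

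A dendritic cell that senses a bacterium through its pattern receptors transcribes cytokine and chemokine genes within hours through NF-kB and interferon regulatory factors. Interferon-beta made in this first wave acts back on the cells and turns on antiviral genes. Many transcripts of the first wave are short-lived, because their messages are unstable and because inhibitors made in the same wave shut off their transcription. Later, activated dendritic cells change their surface receptors, their metabolism and their protein synthesis.

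Each gene was represented by its brightest probe set, and its level is a log2 intensity. The effect of NCFM at one time is the mean of the NCFM arrays less the mean of the control arrays at that time, so 1 unit is a 2-fold change. The difference is the effect at 18 h minus the effect at 4 h, given with its standard error (SE) from limma. A gene was called when its two-sided p, adjusted by Benjamini-Hochberg over 18193 genes, was under 0.05.

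The difference was called for 619 genes, which is 3.4% of those tested. It was higher at 18 h for 216 genes (1.19%) and lower for 403 (2.22%). Called differences of at least 1 unit numbered 265, of which 75 were higher and 190 lower. Quantile normalization gave 318 higher and 377 lower. Centring each array on its spike-in probes gave 134 higher and 690 lower, and shifted the median difference of all genes by -0.1 from 0. With the array number as a block 1665 genes were called (587 higher and 1078 lower), among them all 619 in the same direction. Blocked counts of list members are to be set beside these counts, not beside 3.4%.

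The called genes fell into 7 patterns, by the calls on the effect at each time. Rises at 4 h that shrank (faded rises) numbered 94, and falls at 4 h that shrank (faded falls) 73. Effects called only at 18 h comprised 95 late rises and 226 late falls. Effects called at both times with opposite signs numbered 48, of which 33 went from fall to rise and 15 from rise to fall. A further 14 rises grew and 67 falls deepened. In the remaining 2 genes, Clec5a and Zdhhc24, which are named here after their values were seen, neither effect was called. The largest single pattern was thus a fall that appeared after 4 h.

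**Figure D1:**
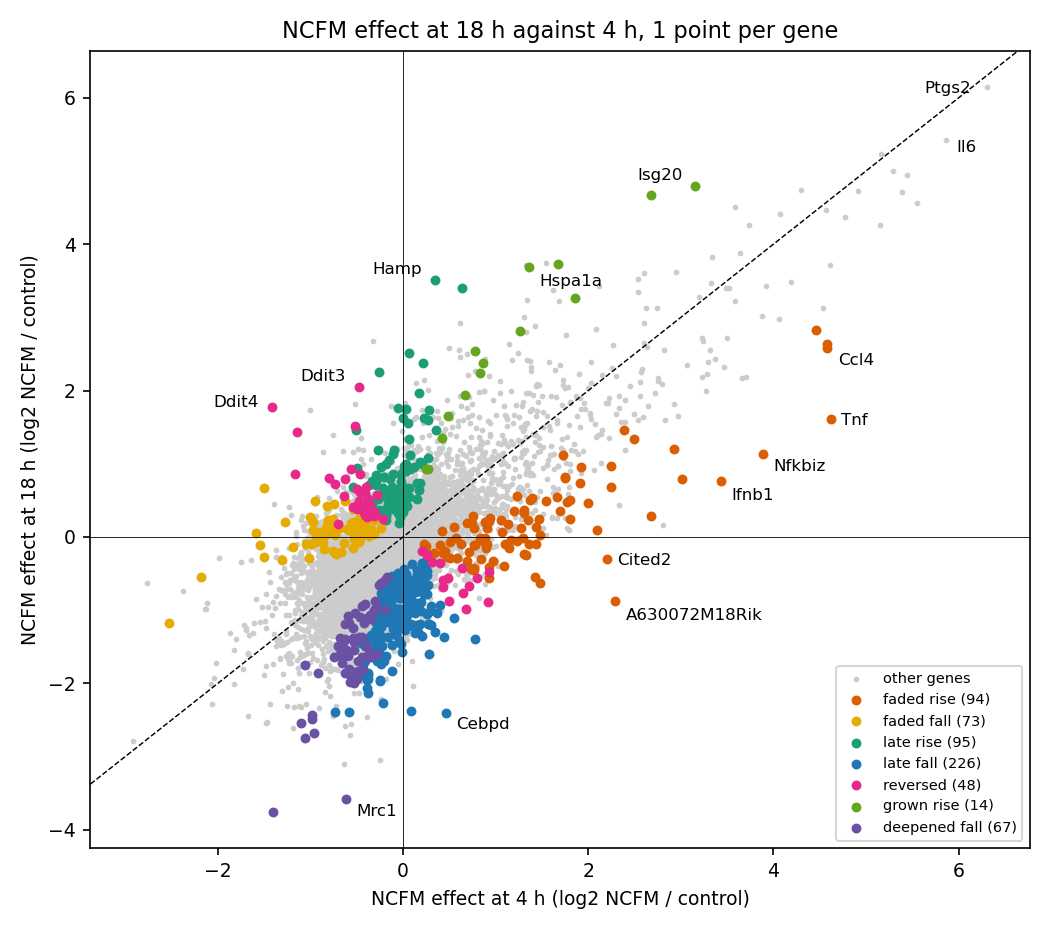
Each point is 1 of 18193 genes, with its NCFM effect at 4 h on the x axis and at 18 h on the y axis (log2 NCFM over control), and the dashed line marks equal effects. Colours give the pattern of the 619 called differences, with their number in brackets. Tnf lies at 4.62 and 1.61, far below the line, and Hamp at 0.35 and 3.51, far above it, while Ptgs2 and Il6 lie close to the line.

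The NCFM arrays, not the control arrays, carried most of these differences. Between 4 and 18 h 2947 genes (16.2%) were called in NCFM cells. In control cells 0 genes (0%) were called by limma, with 559 at an unadjusted p under 0.05 (3.07% of tests) and 1 called with the array number as a block. In 607 of the 619 genes (98.1%) the NCFM arrays changed more between the times than the control arrays did, against 69% of all genes. The exception of largest difference, of 12, was Id3, an inhibitor of DNA-binding factors. Its control level moved by -1.64 (adjusted p = 0.0753) and its NCFM level by -0.21. Without control 18 h array 1, 33 genes were called between the control times, and without all arrays numbered 1 this number was 100, with a single array left at 18 h.

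The effects at 10 h do not enter the difference, although the 10 h arrays add to the fit's estimate of spread and carry the same array numbers. In 553 of the 619 genes (89.3%) the effect at 10 h lay between those at 4 and 18 h, a description of genes chosen for a gap between these times. The median effect of the faded rises was 1.19 at 4 h, 0.63 at 10 h and 0.09 at 18 h. That of the late falls was -0.07, -0.65 and -1, and that of the late rises -0.08, 0.32 and 0.68. Growing rises had a median of 0.85 at 4 h, 2.48 at 10 h and 2.46 at 18 h, so their median at 10 h was close to that at 18 h. The 4 and 18 h values in these medians chose the patterns.

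**Figure D2:**
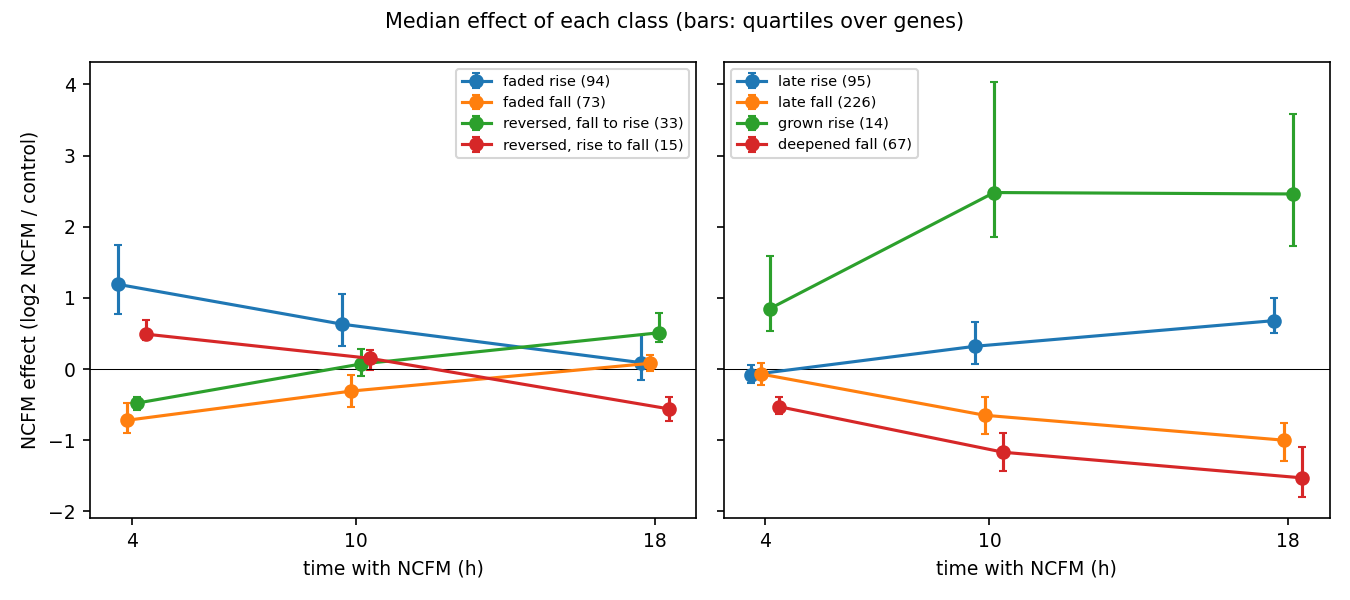
Median NCFM effect (log2 NCFM over control) of the genes of each pattern at 4, 10 and 18 h, with bars from the first to the third quartile over genes and the number of genes in brackets. The patterns were chosen from the 4 and 18 h values, and the 10 h median of the faded rises (0.63) lies between 1.19 and 0.09.

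In every group the array numbered 1 stood apart from its partners. Xist, the RNA of the inactive X chromosome, lay between 8.02 and 8.53 on these arrays and between 10.97 and 12.9 on the others. The Y-linked gene Eif2s3y lay between 9.81 and 10.26 against 5.98 to 6.19. Kdm5d and Uty, also Y-linked, lay at 7.95 to 8.62 against 6.11 to 6.32, and at 8.14 to 8.71 against 6 to 6.19. In these genes the arrays numbered 1 differed from the others as male cells do from female cells. The labels do not give sex. Arrays numbered 1 are 33.3% of 3 groups and 50% of the 18 h control, so a gene that differs on them enters the difference with a weight of -0.167. The difference itself was 0.77 for Xist (adjusted p = 0.952) and -0.65 for Eif2s3y (adjusted p = 0.953). Without the arrays numbered 1, 1593 genes were called, with 459 higher and 1134 lower, and these included 481 of the 619, all in the same direction. That fit has 4 residual degrees of freedom, and it takes the spread of its single 18 h control array from the other groups.

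Summed marker intensities of some cell types differed between the groups, while few markers were called in the difference. All 12 dendritic cell markers measured lay above the first quartile of the arrays in every group, among them Itgax at an intensity of 1654 to 5478 and the class II gene H2-Ab1 at 12114 to 15511. Cd209a was the dimmest at 155 to 241. The neutrophil and B cell lists also held no marker under the first quartile in these groups. The summed intensity of the dendritic cell list was 63599 to 65056 in the 4 h control, 62144 to 67173 with NCFM at 4 h, 63198 to 67770 in the 18 h control and 51912 to 59154 with NCFM at 18 h. The 10 neutrophil markers summed to 38415 to 47671, 16966 to 42024, 30471 to 31927 and 7619 to 18845 in the same order. The 11 macrophage markers summed to 67038 to 92304, 64200 to 102770, 80203 to 102233 and 62374 to 85363, in the range of the dendritic cell list or above it. Of the 10 neutrophil markers 1 (10%) was called in the difference, beside 3.4% of all genes. It was the collagenase gene Mmp8, at -1.56. The difference was below 0 for 7 of the 10, while S100a8 had 0.04, Camp 0.06 and Cxcr2 0.14. The part of neutrophils in the results was not tested. Of 11 macrophage markers 1 (9.09%) was called, Mrc1 (lower), and of 8 plasmacytoid dendritic cell markers 1 (12.5%), Bst2 (higher). The plasmacytoid list summed to 3392 to 3741, 4345 to 7325, 3464 to 4483 and 10958 to 14196 in the same order. Bst2, which interferon also induces, ran from 1624 to 12281 over the arrays, while 6 of the 8 markers had a difference below 0 and the list's median was -0.04. With the block 3 macrophage and 2 dendritic cell markers were called lower, beside 1078 of all 18193 genes. Without the block, in the lists for dendritic, T, B, natural killer, mast, eosinophil and erythroid cells and for stroma no member was called. Mmp8 lost its call without NCFM 18 h array 2, control 4 h arrays 1 or 2 or control 18 h array 1 (values -1.8 to -1.29).

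The 8 largest faded rises were A630072M18Rik, Tnf, Nfkbiz, Ifnb1, Cited2, Edn1, Rasgef1b and Egr1. Promoters of Ifnb1 and Tnf are shown here, since both lost most of their rise by 18 h, with that of Hamp, the largest late rise. The windows come from RefSeq (GRCm38.p6), run from 250 bases before to 50 bases after the start of the gene, and are written 5′ to 3′ on the strand of the gene. Capitals mark matches, on either strand, to motifs named after them. Ifnb1 is at chr4:88522745-88523044 on the minus strand, Tnf at chr17:35201958-35202257 on the minus strand, and Hamp at chr7:30943980-30944279 on the minus strand.
Ifnb1: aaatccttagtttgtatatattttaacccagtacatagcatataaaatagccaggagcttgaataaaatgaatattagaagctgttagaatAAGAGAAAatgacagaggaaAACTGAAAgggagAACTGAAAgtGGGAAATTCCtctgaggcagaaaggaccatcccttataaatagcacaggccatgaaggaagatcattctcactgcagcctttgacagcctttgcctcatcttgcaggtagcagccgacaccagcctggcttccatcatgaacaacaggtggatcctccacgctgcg
Tnf: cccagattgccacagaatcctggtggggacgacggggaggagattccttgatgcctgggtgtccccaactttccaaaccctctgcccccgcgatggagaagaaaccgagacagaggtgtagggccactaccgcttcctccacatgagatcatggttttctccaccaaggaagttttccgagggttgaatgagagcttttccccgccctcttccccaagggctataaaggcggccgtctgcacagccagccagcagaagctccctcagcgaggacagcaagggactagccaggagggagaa
Hamp: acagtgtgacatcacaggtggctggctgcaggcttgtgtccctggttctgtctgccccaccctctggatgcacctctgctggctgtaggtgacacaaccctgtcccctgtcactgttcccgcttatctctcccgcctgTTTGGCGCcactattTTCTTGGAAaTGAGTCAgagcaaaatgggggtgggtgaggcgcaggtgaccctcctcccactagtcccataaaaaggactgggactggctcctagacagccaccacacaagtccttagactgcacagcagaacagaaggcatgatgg

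The Ifnb1 window holds PRDII, the NF-kB element of the interferon-beta enhancer, beginning 116 bases before the start. This motif was in 0.11% of the 32851 promoters of the table. It also holds 3 matches to AANNGAAA, the core of a site for interferon regulatory factors, found in 23.9% of promoters. The Hamp window holds TTTGGCGC, an E2F motif (TTTNGCGC, in 1.38%), TTCTTGGAA, a STAT motif (TTCNNNGAA, in 8.3%), and TGAGTCA, an AP-1 motif (TGANTCA, in 7.81%). The STAT, PRDII and core site patterns were added after these windows had been read. The Tnf window held no match to these patterns, to the interferon-stimulated response element (in 3.44% of promoters), to another NF-kB pattern (in 1.63%) or to TCACNCCAC (a sterol response pattern, in 1.24%). The interferon-stimulated response element, whose matches can overlap those of the core site, was in the promoters of 6 of the 75 faded rises with a window (8%) and of 3.02% of the 14452 tested genes with one. It was also in 3 of 39 reversed genes (7.69%) and 1 of 10 grown rises (10%), in 2.67% of late rises and 2.63% of late falls, and in 0 faded or deepened falls. The AP-1 motif was in 2.67% of the faded rises and 6.33% of the tested genes. A match describes the letters and is not evidence of binding.

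Tnf, the tumour necrosis factor gene, had intensities of 591, 553 and 504 in the 4 h control and of 11525, 12513 and 16875 with NCFM. At 18 h its intensities were 567 and 576 in the control and 1510, 1611 and 2184 with NCFM. All NCFM arrays lay above all control arrays at both times, and no 18 h NCFM array reached the 4 h NCFM arrays. The effect went from 4.62 to 1.61, from a 24.5-fold to a 3.05-fold rise, and the difference was -3.01 ± 0.27 (SE, adjusted p = 0.000515).

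Ifnb1, the interferon-beta gene, had 142, 147 and 134 in the 4 h control and 1396, 1690 and 1484 with NCFM at 4 h. At 18 h it had 154 and 160 in the control and 314, 251 and 241 with NCFM. The 18 h NCFM arrays were still above every control array, while lying far below the 4 h NCFM arrays. The rise went from 10.8-fold to 1.7-fold, a difference of -2.66 ± 0.34 (adjusted p = 0.00221), and the effect at 10 h was 1.3. Of the 7 interferon ligand genes measured, Ifnb1 was the 1 member called (14.3%, beside 3.4% of all genes). The list's median difference was -0.05, beside 0 over all genes.

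Nfkbiz encodes a nuclear partner of NF-kB that is needed for a set of secondary response genes. It had 456, 803 and 863 in the 4 h control, 8426, 9368 and 12914 with NCFM at 4 h, 591 and 866 in the 18 h control and 2299, 1334 and 1263 with NCFM at 18 h. Array 1 was the highest of the 18 h NCFM arrays, and no NCFM array overlapped the control of its time. Its rise went from 14.8-fold to 2.2-fold, with a difference of -2.75 ± 0.47 (adjusted p = 0.00887).

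Cited2 and Edn1 were no longer called at 18 h. Cited2, a co-regulator that restrains hypoxia-inducible factors, had 4123, 5069 and 7204 with NCFM at 4 h against 1118, 1133 and 1225 in the control. At 18 h it had 1311, 887 and 999 with NCFM against 1089 and 1546, so that the groups overlapped. Its difference was -2.5 ± 0.32 (adjusted p = 0.00221). Edn1, which encodes the vasoconstrictor peptide endothelin, had 893, 1118 and 1547 with NCFM at 4 h against 198, 167 and 178, and 255, 197 and 212 at 18 h against 191 and 170. The 18 h NCFM arrays still lay above both control arrays by a small margin, and the difference was -2.39 ± 0.25 (adjusted p = 0.000816).

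The other faded rises named by size were A630072M18Rik, Rasgef1b and Egr1. A630072M18Rik, an uncharacterised locus, had the largest difference of the faded rises, at -3.17 ± 0.56 (adjusted p = 0.0109), with 987, 1558 and 2440 in 4 h NCFM cells and 310, 145 and 139 at 18 h. Its 18 h control held 270 and 426, so that NCFM arrays 2 and 3 had gone below both. Rasgef1b, a Ras exchange factor gene, went from an 8.08-fold to a 1.73-fold rise (difference -2.22 ± 0.34, adjusted p = 0.00598). Egr1, an immediate early transcription factor gene, had a difference of -2.11 ± 0.46 (adjusted p = 0.0275). The call on Egr1 was lost without any one of 6 arrays, namely NCFM 18 h arrays 2 and 3, control 4 h arrays 1, 2 and 3 and control 18 h array 2, with values of -2.57 to -1.65 and an adjusted p of up to 0.0971 over all 11 omissions.

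Of the 94 faded rises 26 were still called higher at 18 h, while 68 were no longer called. The median share of the 4 h effect left was 8.1% in these 94, which were chosen for shrinking. It was 65.2% in all 959 genes called higher at 4 h, a choice on the 4 h effect that also favours a smaller share. Chemokine genes show how a large rise can shrink and stay large. Ccl3, a ligand that draws monocytes and T cells, had 19467, 21529 and 20069 with NCFM at 4 h and 7904, 4638 and 4985 at 18 h, against 750 to 1094 over the 5 control arrays. Ccl4, which acts on a shared receptor, went from a 24-fold to a 5.99-fold rise. The differences were -1.63 ± 0.29 (adjusted p = 0.0109) for Ccl3 and -2 ± 0.31 (adjusted p = 0.00598) for Ccl4. In both genes all 18 h NCFM arrays lay below all 4 h NCFM arrays and above every control array.

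Most of the strongest early genes had a smaller rise at 18 h but were still called. The 49 genes with a rise of at least 8-fold at 4 h were all called higher at 18 h, and 28 of them were still at 8-fold or more. The median share of the log2 effect left was 82.7%, and 39 of the 49 had a smaller effect at 18 h. The 49 were chosen for a large 4 h effect, which by itself favours a smaller one at 18 h. The difference was called for 8 of these 49, beside 3.4% of all genes: Ifnb1 with 22.3% of the log2 effect left, Rasgef1b with 26.3%, Nfkbiz with 29.2%, Tnf with 34.9%, Ccl4 with 56.3%, Ch25h with 57.7%, Ccl3 with 63.5% and Isg20 with 152%. Ch25h makes the oxysterol that restrains virus entry, and its call was lost without any one of 7 arrays (NCFM 4 h arrays 2 and 3, NCFM 18 h array 2, control 4 h arrays 2 and 3 and both control 18 h arrays), with values of -2.09 to -1.77.

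For other strongly induced genes the difference was not called. Ptgs2, the inducible cyclooxygenase, had 80, 107 and 85 in the 4 h control, 4852, 7282 and 10225 with NCFM at 4 h, 86 and 90 in the 18 h control and 8648, 6832 and 4108 with NCFM at 18 h. Its NCFM arrays overlapped between the times, and the difference was -0.16 with a 95% confidence interval of -1.08 to 0.76. Il6, an inflammatory cytokine, had 15314, 17329 and 19695 with NCFM at 4 h and 13751, 9010 and 5968 at 18 h, where all 3 lay below those at 4 h. The difference of Il6 was -0.44, with an interval of -1.48 to 0.61, so changes of about 1 unit cannot be told from none. Cxcl10, a chemokine induced by interferon, had effects of 5.29 and 5 (difference -0.3, interval -1.74 to 1.14).

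Over the whole response, 959 genes were called higher at 4 h (5.27%) and 2376 lower (13.1%). At 18 h, 1347 were higher (7.4%) and 2973 lower (16.3%). Of the genes called higher at 4 h, 474 were called higher again at 18 h (49.4%), 15 were called lower and 470 were not called. Of those called lower at 4 h, 1375 were called lower again (57.9%), 33 higher and 968 not called. Effects called in the same direction at both times with no call on the difference numbered 1740, of which 434 were higher and 1306 lower. A missing call does not show that the effects were equal.

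The faded falls were smaller and less familiar. Prorsd1, which resembles a bacterial tRNA-editing enzyme, had 970, 1369 and 1121 in the 4 h control and 403, 457 and 301 with NCFM. At 18 h it had 869 and 1119 in the control and 1114, 1066 and 917 with NCFM, so that the groups overlapped. Its fall of 2.99-fold at 4 h was 1.04-fold in the other direction at 18 h, a difference of 1.64 ± 0.24 (adjusted p = 0.00411). AI467606, an uncharacterised gene, had 2406, 2798 and 2320 in the 4 h control and 777, 557 and 391 with NCFM. At 18 h its NCFM arrays held 1578, 1677 and 1689 against 2232 and 2596, still below the control, and its difference was 1.63 ± 0.3 (adjusted p = 0.013).

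Further faded falls were named by size. Mettl7a1, a lipid droplet methyltransferase gene, had the largest difference of the class at 2.18 ± 0.42 (adjusted p = 0.0153), and its probe set can detect related sequences. The call on Mettl7a1 was lost without control 18 h array 2 (adjusted p = 0.0523; values 1.91 to 2.61 over the omissions). Zfp53 had a difference of 1.48 and Narf of 1.44 (adjusted p = 0.00589 and 0.00816). Id3, at 1.43, whose control level fell between the times, lost its call without control 18 h array 1, with a value of 1.12 to 1.74 over the omissions and an adjusted p of up to 0.0611. Zfp36l2, which promotes decay of AU-rich messages, had a difference of 1.35, but its 2 other probe sets gave 0.09 and 0.27. It lost its call without any one of 5 arrays (NCFM 4 h array 2, NCFM 18 h arrays 2 and 3, control 4 h array 2 and control 18 h array 1; values 1.15 to 1.56). Fbxl20, at 1.28, lost it without any one of 6 (NCFM 4 h array 2, NCFM 18 h array 2, control 4 h arrays 2 and 3 and both control 18 h arrays; values 1.09 to 1.43). Other probe sets of Fbxl20 gave 0.08, 0.2 and 0.91. Of the 73 faded falls 2 were still called lower at 18 h.

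The largest late rises were Hamp, H2-Q5, Gadd45g, Orm1 and Lcn2, in that order. Hamp encodes hepcidin, the peptide that blocks the iron exporter. It had 113, 125 and 128 in the 4 h control, 146, 229 and 111 with NCFM at 4 h, 122 and 121 in the 18 h control and 1410, 1544 and 1228 with NCFM at 18 h. The 4 h groups overlapped, and all 18 h NCFM arrays lay far above the other 8. The effect went from 0.35 to 3.51, an 11.4-fold rise at 18 h, and the difference was 3.17 ± 0.37 (adjusted p = 0.00148). The effect at 10 h was 2.99, so most of the rise was present by then. A second probe set of Hamp gave a difference of 2.42.

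Lcn2 encodes lipocalin, which binds bacterial iron carriers. It was already bright in control cells, with 3988, 4232 and 3119 at 4 h and 3144 and 3151 at 18 h. With NCFM it had 3601, 6782 and 3405 at 4 h and 13806, 16320 and 19312 at 18 h. The 4 h groups overlapped apart from the high NCFM array 2, and the 18 h groups did not. The difference was 2.15 ± 0.38 (adjusted p = 0.0109), with a 5.19-fold rise at 18 h. Orm1, an acute-phase protein gene, had 102 to 139 in all 8 arrays outside the 18 h NCFM group and 460, 1136 and 653 within it. Its difference was 2.45 ± 0.46 (adjusted p = 0.0141), which missed the threshold without control 18 h array 1 (adjusted p = 0.0528; values 2.1 to 2.75 over the omissions).

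Gadd45g, a stress-inducible growth-arrest gene, had 351, 386 and 354 in the 4 h control and 250, 369 and 304 with NCFM at 4 h. At 18 h it had 276 and 371 in the control and 1168, 2046 and 1500 with NCFM. The 18 h NCFM arrays stood above all others, and the difference was 2.52 ± 0.41 (adjusted p = 0.00793). H2-Q5, a class I gene, had 630, 1169 and 947 with NCFM at 4 h and 3995, 8511 and 6888 at 18 h, against 510 to 677 over the 5 control arrays. Its difference was 2.77 ± 0.47 (adjusted p = 0.00896). Class I genes are near copies of one another, so the source of this signal is uncertain, and a second, dim probe set gave 0.13. Among 14 class I presentation genes 1 (7.14%) was called, beside 3.4% of all genes. It was the shared light chain B2m, at 0.34, which lost its call without any one of 7 arrays (NCFM 4 h arrays 1 and 3, NCFM 18 h arrays 2 and 3, control 4 h arrays 2 and 3 and control 18 h array 1; values 0.28 to 0.41). With the array number as a block 2 class I genes were called higher and 1 lower, beside 587 and 1078 of all 18193 genes.

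Among the late rises, Dnajc1, a co-chaperone gene of the endoplasmic reticulum, had 713, 671 and 698 with NCFM at 4 h and 2106, 2223 and 1392 at 18 h, with a difference of 1.82 ± 0.31 (adjusted p = 0.00983). Of its 5 other probe sets 1 dim one went the other way, at -0.24. Birc6, an inhibitor of apoptosis, and P4ha2, a collagen prolyl hydroxylase, had differences of 1.97 and 1.79 that were less certain. Other probe sets of Birc6 gave 0.12 to 0.83. The call on Birc6 was lost without any one of 8 arrays (all but NCFM 4 h array 1, NCFM 18 h array 1 and control 18 h array 2; values 1.67 to 2.33, adjusted p up to 0.124). That on P4ha2 was lost without any one of 7 (NCFM 4 h array 3, NCFM 18 h arrays 1 and 2, control 4 h arrays 1 and 2 and both control 18 h arrays; values 1.47 to 2.01, adjusted p up to 0.0962).

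**Figure D3:**
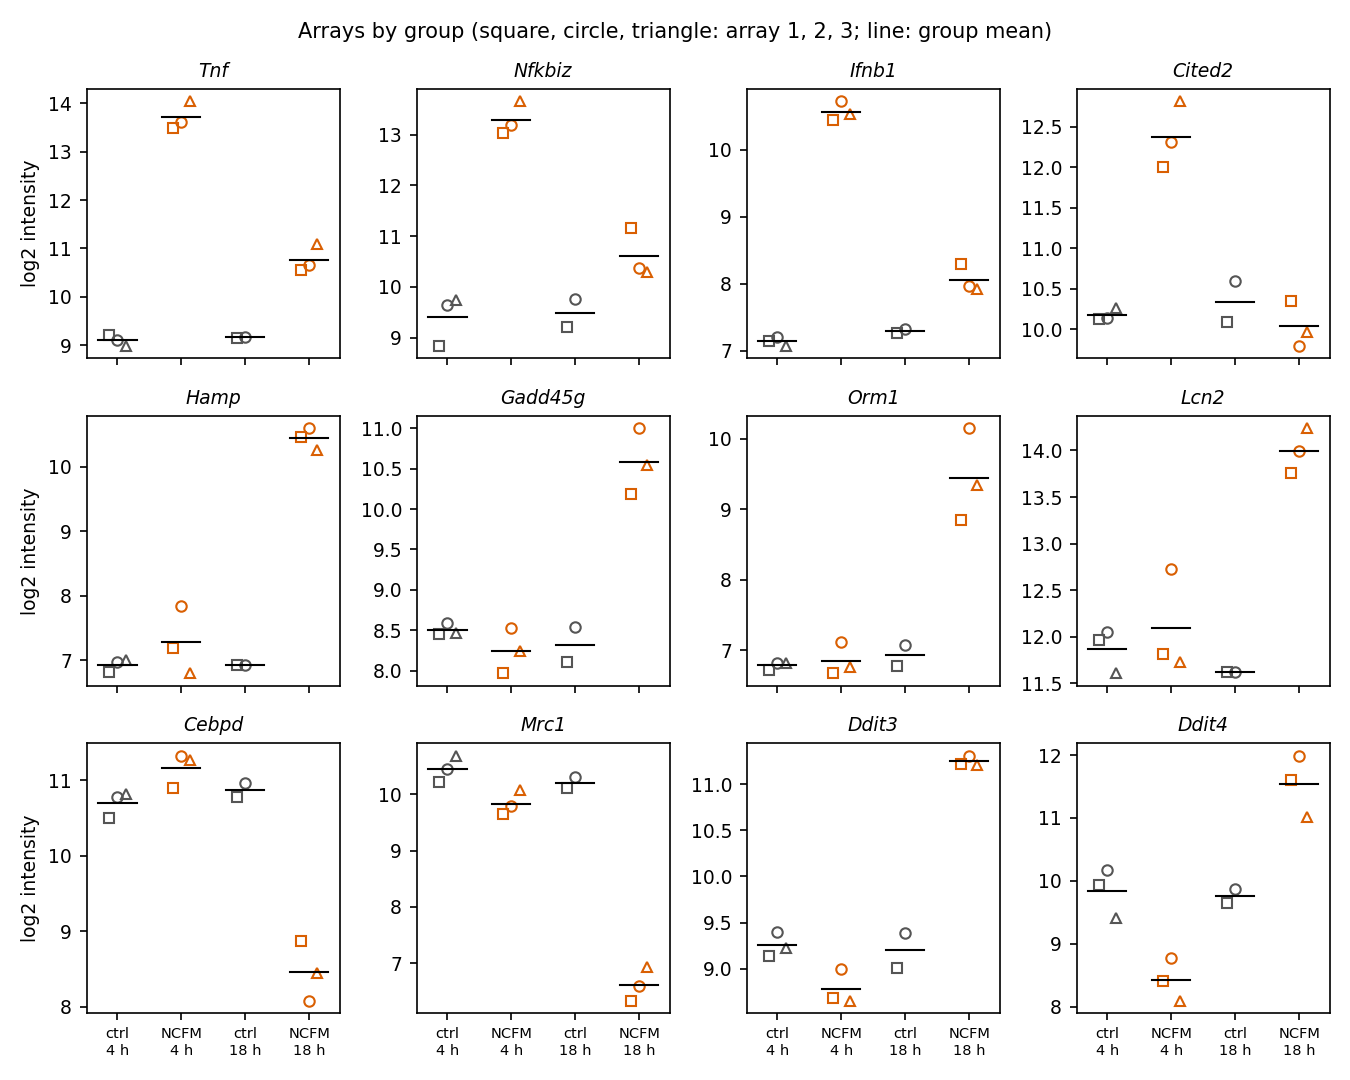
Log2 intensity of 12 named genes on each of the 11 arrays, in grey for control and orange for NCFM, with a line at the group mean and the array number shown by the marker. Tnf, Nfkbiz, Ifnb1 and Cited2 are high only with NCFM at 4 h or highest there, Hamp, Gadd45g, Orm1 and Lcn2 are high with NCFM at 18 h, Cebpd and Mrc1 are low there, and Ddit3 and Ddit4 go from below to above the control.

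The late falls were the largest group, and Cebpd, Sfpq, Tfec and Fbl had the largest differences among them. Cebpd encodes a C/EBP transcription factor of the acute-phase response. It had 1449, 1754 and 1812 in the 4 h control, 1899, 2569 and 2470 with NCFM at 4 h, 1750 and 1989 in the 18 h control and 466, 271 and 349 with NCFM at 18 h. With NCFM it lay above its control at 4 h, by an effect of 0.46 that was not called, and below it on every array at 18 h. The fall at 18 h was 5.28-fold, and the difference was -2.86 ± 0.3 (adjusted p = 0.000816). A dimmer probe set of Cebpd gave -0.26. Tfec, a myeloid transcription factor gene, had 2252, 2902 and 3928 with NCFM at 4 h and 688, 651 and 578 at 18 h, with a difference of -2.18 ± 0.4 (adjusted p = 0.0129) that missed the threshold without control 18 h array 1 (adjusted p = 0.0521; values -2.53 to -1.82 over the omissions).

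The splicing factor genes Sfpq and Srsf2 had differences of -2.46 ± 0.37 and -1.88 ± 0.38 (adjusted p = 0.00502 and 0.0192). Sfpq had 2717, 3651 and 4244 with NCFM at 4 h and 636, 295 and 399 at 18 h, against 2072 and 2302 in the 18 h control. Their other probe sets did not all move alike, with -1.65 to 0.33 over 5 for Sfpq and -0.82 to -0.01 over 3 for Srsf2. Neither gene was called on the mean of its probe sets. Srsf2 also lost its call without any one of 4 arrays (NCFM 18 h array 2, control 4 h arrays 2 and 3 and control 18 h array 1; values -2.29 to -1.48).

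Ribosome biogenesis genes had many called differences. Of 25 measured genes for ribosome biogenesis and RNA polymerases, 10 were called lower in the difference and 0 higher, which is 40% of the list beside 3.4% of all genes. The list was chosen with earlier results of these data known, so this share is a description and not an independent test. The list's median difference was -0.82, beside 0 over all genes, and its median effect went from -0.22 at 4 h to -0.82 at 10 h and -1.05 at 18 h. At 4 h 3 of the 25 were called lower, beside 13.1% of all genes, and at 18 h 20, beside 16.3%. With each of the 11 arrays left out in turn, 7 to 11 members were called lower and 0 higher, with a median of -0.92 to -0.72. The lowest count, 7, was that without control 18 h array 1. Without the arrays numbered 1 the median was -0.85.

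Fbl, the methyltransferase of small nucleolar particles, had 2978, 2644 and 2387 in the 4 h control, 2329, 2536 and 2028 with NCFM at 4 h, 3168 and 1837 in the 18 h control and 663, 471 and 399 with NCFM at 18 h. Its 4 h groups overlapped and its 18 h groups did not. The difference was -2.06 ± 0.39 (adjusted p = 0.0141), with a second probe set at -1.85, and it missed the threshold without control 18 h array 1 (adjusted p = 0.0556; values -2.45 to -1.66 over the omissions). Ncl encodes nucleolin, an abundant nucleolar RNA-binding protein. It had 4777, 3754 and 4903 with NCFM at 4 h and 1540, 1382 and 1440 at 18 h, against 3923 to 5308 over the 5 control arrays. Its difference was -1.36 ± 0.16 (adjusted p = 0.00143), and its 4 other probe sets gave -1.15 to -0.04.

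The other called members sit along the pathway. Polr1e, a subunit of the polymerase that transcribes ribosomal RNA, had a difference of -0.76 ± 0.11 (adjusted p = 0.00498). Utp20 and Heatr1, which process the small-subunit precursor, had -0.99 and -0.74 (adjusted p = 0.00239 and 0.0121). Pes1, of the large-subunit pathway, had -0.9, and the helicase gene Ddx21 had -1.14 (adjusted p = 0.0103 and 0.00704). Mybbp1a, a nucleolar transcription regulator, had 1013, 970 and 1076 with NCFM at 4 h and 454, 422 and 413 at 18 h, a difference of -1.04 ± 0.16. Npm1 and Nolc1, nucleolar chaperones, had -1.17 and -1.08 (adjusted p = 0.0243 and 0.0305), and each lost its call without any one of 7 arrays. For Npm1 these were NCFM 4 h array 3, NCFM 18 h array 2, all control 4 h arrays and both control 18 h arrays (values -1.4 to -1.03). For Nolc1 they were NCFM 4 h array 3, NCFM 18 h arrays 2 and 3, control 4 h arrays 2 and 3 and both control 18 h arrays (values -1.2 to -0.98). Polr3a was the highest of the list, at 0.2.

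**Figure D4:**
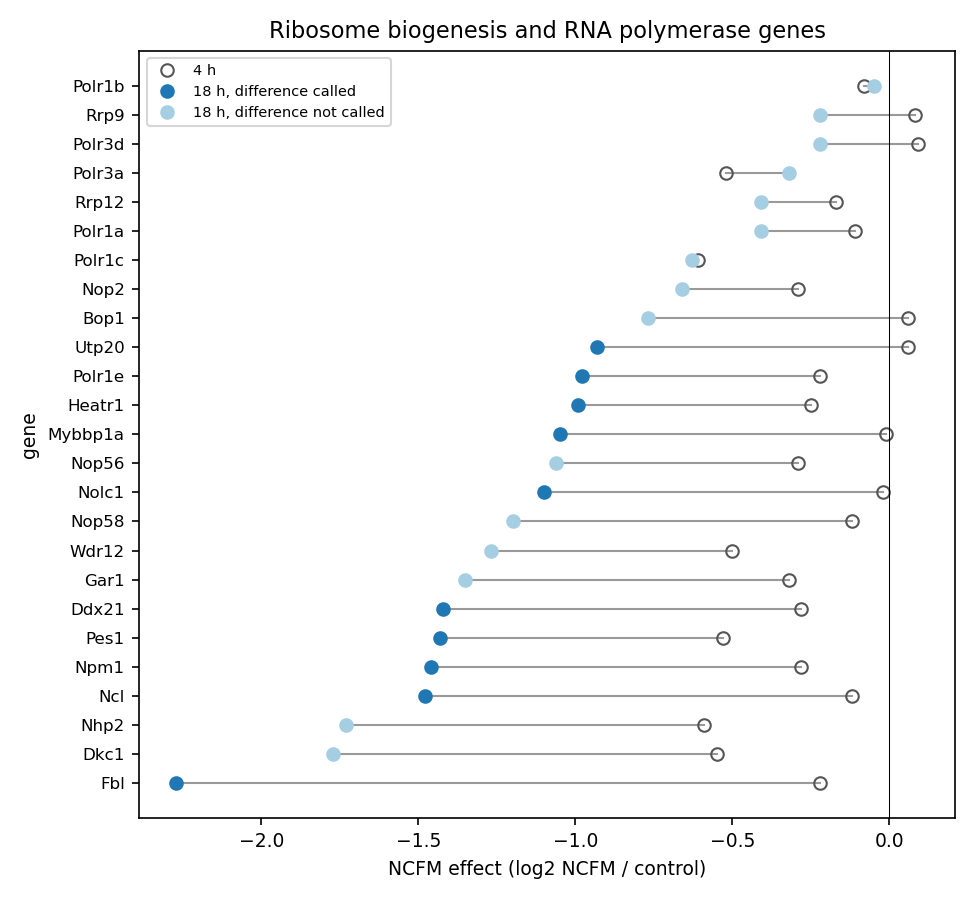
NCFM effect (log2 NCFM over control) of the 25 measured ribosome biogenesis and RNA polymerase genes at 4 h (open circles) and 18 h (filled circles), with dark blue for the 10 genes whose difference was called. The median moves from -0.22 to -1.05, and Fbl lies farthest left at 18 h, at -2.27.

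Ribosomal protein and citrate cycle genes also held called falls, beside 3.4% of all genes. Counts with the block stand beside 587 higher and 1078 lower of all 18193 genes. Of 18 cytosolic ribosomal protein genes 2 (11.1%) were called lower, and 5 with the array number as a block. They were, without the block, Rpl4 at -1.18 and Rps6 at -1.19, and the list's median was -0.42. Rpl4 lost the call without any one of 8 arrays, all but NCFM 4 h arrays 1 and 2 and NCFM 18 h array 1 (values -1.42 to -1.04). Rps6 lost it without any one of 10, all but NCFM 18 h array 1 (values -1.38 to -1.05). Of 25 mitochondrial ribosomal protein genes 2 (8%) were called lower, and 1 higher and 3 lower with the block. The 2 were Mrpl3 at -1.04 ± 0.17 (adjusted p = 0.0075) and Mrps2 at -0.7. Mrps2 lost the call without any one of 7 arrays (NCFM 4 h array 3, NCFM 18 h arrays 2 and 3, control 4 h arrays 2 and 3 and both control 18 h arrays; values -0.79 to -0.64). Of 21 citrate cycle genes 3 (14.3%) were called lower, and with the array number as a block 8. Suclg2, a subunit of succinyl-CoA ligase, had 555, 500 and 601 with NCFM at 4 h and 314, 290 and 306 at 18 h, with a difference of -0.85 ± 0.13 (adjusted p = 0.00502). The pyruvate dehydrogenase genes Pdha1 and Dlat had -0.72 and -0.53. Pdha1 lost the call without any one of 8 arrays, all but NCFM 4 h arrays 2 and 3 and NCFM 18 h array 3 (values -0.84 to -0.59). Dlat lost it without any one of 6 (NCFM 4 h array 3, NCFM 18 h arrays 2 and 3, control 4 h arrays 2 and 3 and control 18 h array 1; values -0.6 to -0.46).

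Among lipid synthesis genes Cyp51 and Fasn were called. Of 20 sterol synthesis genes 1 (5%) was called lower, near the 3.4% of all genes called. It was Cyp51, a demethylase of the cholesterol pathway, at -1.55 ± 0.33 (adjusted p = 0.0263). With the array number as a block 7 of the 20 were called lower, beside 1078 of all 18193 genes. The list's median was -0.64, and 3 of the 20 were called lower at 4 h against 14 at 18 h. Over all genes 13.1% were called lower at 4 h and 16.3% at 18 h. Cyp51 lost its call without any one of 6 arrays (NCFM 18 h arrays 2 and 3, control 4 h arrays 1, 2 and 3 and control 18 h array 1; values -1.89 to -1.22). Fasn, the fatty acid synthase gene, had 766, 623 and 644 with NCFM at 4 h and 292, 254 and 271 at 18 h, against 704 to 1016 over the 5 control arrays. Its difference was -1.1 ± 0.19 (adjusted p = 0.0107). It was the 1 gene called of 23 in the fatty acid list (4.35%, near the 3.4% of all genes). With the block 2 of the list were called higher and 1 lower, beside 587 and 1078 of all 18193 genes. In that list 7 genes were called lower at 4 h, and 10 lower and 2 higher at 18 h, where 7.4% of all genes were called higher.

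The remaining late falls named by size were Lbr, Eef1e1 and Adk. Lbr, a nuclear envelope protein that is also a sterol reductase, had 877, 651 and 822 with NCFM at 4 h and 276, 195 and 232 at 18 h, with a difference of -1.81 ± 0.39 (adjusted p = 0.0259). It lost its call without any one of 7 arrays (NCFM 4 h arrays 1 and 3, NCFM 18 h arrays 2 and 3, control 4 h arrays 2 and 3 and control 18 h array 1; values -2 to -1.65). Eef1e1, of the tRNA synthetase complex, at -1.8, lost it without any one of 10, all but NCFM 18 h array 1 (values -2.04 to -1.67). Adk, adenosine kinase, at -1.75, lost it without control 18 h array 1, with values of -2 to -1.51 over the omissions. The brightest probe set of Adk can detect related sequences, and of its 5 others 1 was at 0.04 and the rest between -0.76 and -0.01.

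The reversed effects included a pair of stress response genes with large changes. Ddit3 encodes CHOP, the transcription factor of the unfolded protein and integrated stress responses. It had 564, 673 and 599 in the 4 h control and 410, 510 and 403 with NCFM, below every control array. At 18 h it had 514 and 671 in the control and 2391, 2540 and 2366 with NCFM, above both. The effect went from -0.48 to 2.05, a difference of 2.53 ± 0.18, which had the lowest adjusted p of the named genes, 0.000133. Ddit4, an inhibitor of the growth kinase mTOR complex that stress and hypoxia induce, had 979, 1155 and 683 in the 4 h control and 341, 437 and 274 with NCFM. At 18 h it had 801 and 940 against 3097, 4077 and 2072, and its difference was 3.19 ± 0.56 (adjusted p = 0.0103).

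The other members of the stress list did not follow Ddit3 as a group. Of 27 measured genes 3 were called higher and 2 lower (18.5% in all, beside 3.4% of all genes), and the median difference was 0.05. Atf4, the factor upstream of Ddit3, had 2720, 2926 and 2711 with NCFM at 4 h and 5607, 4671 and 4127 at 18 h, with a difference of 0.74 ± 0.17 (adjusted p = 0.0368). Its call was lost without any one of 8 arrays (all but NCFM 18 h arrays 1 and 3 and control 18 h array 1; values 0.62 to 0.86). The called falls were Herpud1 at -0.8 ± 0.15 (adjusted p = 0.0138) and Sel1l at -0.6, both of the pathway that removes misfolded proteins from the endoplasmic reticulum. Sel1l lost its call without any one of 10 arrays, all but NCFM 18 h array 3 (values -0.68 to -0.53). Neither Herpud1 nor Sel1l was called on the mean of its probe sets, and another probe set of Herpud1 gave -0.34. The chaperone gene Hspa5 had a difference of -0.11 (interval -0.82 to 0.6) and Chac1 of 0.02 (interval -0.24 to 0.29). Trib3 had 0.78, just outside the threshold (adjusted p = 0.0522), and was called with the array number as a block (adjusted p = 0.00359).

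Of 14 heat shock genes 3 (21.4%) were called higher, beside 3.4% of all genes, a share that counts Hspa1a and Hspa1b separately. With the array number as a block 4 were called higher and 2 lower, beside 587 and 1078 of all 18193 genes. Hspa1a and Hspa1b, the inducible heat shock chaperones, are near-identical copies whose probes can detect both. Their 2 calls are therefore read as a single signal, and the share of the list is overstated. Hspa1b had 1047, 1635 and 1339 with NCFM at 4 h and 3703, 7586 and 5332 at 18 h, against 342 to 490 over the 5 control arrays. The difference was 2.05 ± 0.36 (adjusted p = 0.0103) for Hspa1b and 2.33 ± 0.46 (adjusted p = 0.0178) for Hspa1a. Their effects at 10 h, 4.3 and 4.61, were above those at 18 h, 3.72 and 3.69. The call on Hspa1a was lost without control 4 h array 2 or control 18 h array 1 (values 1.98 to 2.63). Hsph1, a nucleotide exchange factor for these chaperones, reversed, with 409, 526 and 515 at 4 h and 1244, 1639 and 1597 at 18 h in NCFM cells, and a difference of 1.41 ± 0.19 (adjusted p = 0.00283). The list's median was 0.31.

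Further reversals named by size included Ankrd37, a target of hypoxia-inducible factors. It had 1159, 1417 and 1055 in the 4 h control, 571, 696 and 399 with NCFM at 4 h, 933 and 870 in the 18 h control and 2434, 2654 and 2235 with NCFM at 18 h. The groups did not overlap at either time, and the difference was 2.58 ± 0.37 (adjusted p = 0.00398). The linker histone gene H1f2 went from a 2.24-fold fall to a 1.82-fold rise (difference 2.03 ± 0.2, adjusted p = 0.000816). In the opposite direction, Ikzf1, a lymphoid and myeloid transcription factor, had 1388, 1795 and 1971 with NCFM at 4 h and 405, 426 and 628 at 18 h, against 749 to 1037 over the 5 control arrays. Its difference was -1.81 ± 0.34 (adjusted p = 0.0138), and it missed the threshold without control 18 h array 2 (adjusted p = 0.0526; values -2.04 to -1.57 over the omissions). Septin11, a cytoskeletal gene, had -1.67 ± 0.27 (adjusted p = 0.0075). Kynu, an enzyme of tryptophan breakdown, had -1.05 ± 0.13 (adjusted p = 0.00221), and another probe set gave -0.25.

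Falls that deepened were led by surface receptors. Mrc1, the mannose receptor for uptake of glycans, had 1183, 1391 and 1646 in the 4 h control, 799, 885 and 1076 with NCFM at 4 h, 1101 and 1264 in the 18 h control and 81, 97 and 122 with NCFM at 18 h. The NCFM arrays were below the control at both times, and by 18 h they lay below the array medians of 162 to 167. The fall went from 1.53-fold to 12-fold, with a difference of -2.97 ± 0.25 (adjusted p = 0.000379). On intensities with background subtracted the difference was -4.57, with the 18 h values near the floor. Ccr2, the receptor that draws monocytes out of the marrow, had 2587, 1576 and 2504 with NCFM at 4 h and 303, 215 and 391 at 18 h, with a difference of -2.34 ± 0.48 (adjusted p = 0.0203). The call on Ccr2 was lost on the mean of its 4 probe sets and without NCFM 18 h array 2, control 4 h array 2 or control 18 h array 1 (values -2.68 to -2.01).

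Clec4a2, an inhibitory C-type lectin receptor gene, had 1936, 2303 and 2478 with NCFM at 4 h and 567, 558 and 723 at 18 h, and a difference of -1.71 ± 0.27 (adjusted p = 0.00598). Cd93, a receptor linked to clearance of dying cells, had 442, 384 and 486 at 4 h and 189, 165 and 206 at 18 h, a difference of -1.5 ± 0.21 (adjusted p = 0.00353). In both genes the NCFM arrays lay below the control at 4 h and lower again at 18 h. Of 29 uptake and scavenger receptor genes 3 (10.3%) were called lower, Mrc1, Clec4a2 and Clec5a, beside 3.4% of all genes. The list's median was -0.04. With the array number as a block 1 was called higher and 5 lower, beside 587 and 1078 of all 18193 genes. The call on Clec5a, at -1.65, was lost without any one of 8 arrays (all but NCFM 4 h arrays 1 and 3 and NCFM 18 h array 3; values -1.9 to -1.31). Other deepened falls were Gusb, a lysosomal enzyme, at -1.41 ± 0.16 (adjusted p = 0.00126), and Cfp, which encodes the complement factor properdin, at -1.33 ± 0.13 (adjusted p = 0.000762). Ap1s2, of a vesicle adaptor, at -1.68, lost its call on the mean of its probe sets, of which the others ran from -1.3 to 0.35. It also lost the call without any one of 7 arrays, with values of -1.91 to -1.45. These were NCFM 4 h arrays 1 and 3, NCFM 18 h arrays 2 and 3, control 4 h arrays 1 and 2 and control 18 h array 2.

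Rises that grew were fewer. Cst7, a cystatin protease inhibitor gene, had 511, 546 and 409 with NCFM at 4 h and 1392, 1977 and 2015 at 18 h, with a difference of 1.77 ± 0.33 (adjusted p = 0.0141). Batf, a transcription factor gene of dendritic and T cell programmes, had 823, 1065 and 772 at 4 h and 2214, 2133 and 2199 at 18 h, with a difference of 1.17 ± 0.21 (adjusted p = 0.0111). Isg20, an exonuclease that degrades viral RNA, went from an 8.92-fold to a 27.8-fold rise, a difference of 1.64 ± 0.4 (adjusted p = 0.0463). It lost the call without any one of 8 arrays (all but NCFM 4 h array 2, NCFM 18 h array 1 and control 18 h array 2; values 1.19 to 2.1) and with spike-in centring. Ms4a4c, a membrane protein gene with close relatives, had 1.98 ± 0.46 (adjusted p = 0.0353), and lost the call without any one of 8 (all but NCFM 18 h array 1 and control 4 h array 1 and control 18 h array 2; values 1.53 to 2.44).

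Antiviral genes were mostly called higher at both times. Of 38 antiviral effector genes 34 were called higher at 4 h and 32 at 18 h, beside 5.27% and 7.4% of all genes. In the difference 3 (7.89%) were called, beside 3.4% of all genes. Higher were 2, Isg20 and the virus tether Bst2, and 1 lower, the RNA-editing gene Adar. Bst2, at 1.52, lost its call without any one of 9 arrays, all but NCFM 4 h array 2 and NCFM 18 h array 1 (values 1.22 to 1.8), and with spike-in centring. Adar, at -1.22, lost it without any one of 8, all but NCFM 18 h array 1, control 4 h array 1 and control 18 h array 1 (values -1.48 to -0.98). Other probe sets of Adar gave -0.15 and -0.42. The list's median was -0.27, and was -0.71 without control 18 h array 1 and 0.44 without control 18 h array 2. Called with the array number as a block were 4 higher and 6 lower, beside 587 and 1078 of all 18193 genes. Without the arrays numbered 1 the list's median was -0.64. The 9 interferon-inducible GTPase genes held 0 called genes in limma's fit and 3 with the array number as a block (Ifi47, Irgm1 and Irgm2, all lower). All 9 were called higher at both times. Rsad2, an enzyme that blocks viral replication, had a difference of -0.09 with an interval of -2.25 to 2.07, and its 18 h control arrays held 445 and 3073.

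Of the sensor and adaptor genes, Cgas and Myd88 were faded rises and Sting1 a late fall. Cgas, the enzyme that senses DNA, had 556, 512 and 408 in the 4 h control and 1568, 1883 and 1661 with NCFM, and at 18 h 621 and 542 against 668, 908 and 909. Its rise went from 3.48-fold to 1.41-fold, a difference of -1.3 ± 0.21 (adjusted p = 0.00673). Sting1, its downstream adaptor, had -1.02 ± 0.22 (adjusted p = 0.0255), and lost the call without any one of 6 arrays (NCFM 4 h array 3, NCFM 18 h arrays 2 and 3, control 4 h arrays 2 and 3 and control 18 h array 1; values -1.2 to -0.84). Of 15 nucleic acid sensor genes these 2, Cgas and Sting1 (13.3%), were called lower, beside 3.4% of all genes. With the array number as a block 8 of the 15 were called lower, beside 1078 of all 18193 genes. Myd88, the adaptor of most Toll-like receptors, had 3887, 4228 and 5447 with NCFM at 4 h and 2219, 1806 and 2076 at 18 h, against 1724 to 2047 over the 5 control arrays. At 18 h array 2 lay among the control arrays and arrays 1 and 3 just above them, with a difference of -1.15 ± 0.19 (adjusted p = 0.00752).

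In the cytokine lists, the 27 inflammatory cytokine genes had a median difference of -0.44. Of these, 3 (11.1%) were called lower and 0 higher, beside 3.4% of all genes. They were Tnf, the macrophage growth factor Csf1 at -1.05 ± 0.18 (adjusted p = 0.00857) and the co-stimulatory ligand Tnfsf9 at -0.92. The call on Tnfsf9 was lost without any one of 8 arrays (all but NCFM 4 h array 1, NCFM 18 h array 1 and control 18 h array 2; values -1.12 to -0.73) and under quantile normalization. With the array number as a block 6 of the 27 were called lower, beside 1078 of all 18193 genes. Il23a, a subunit that pairs with Il12b, had -1.28 and stood just outside the threshold (adjusted p = 0.0524; 0.0395 with the block). Of 28 chemokine genes 10.7% were called, beside 3.4% of all genes: Ccl3 and Ccl4 lower and Ccl8 higher, at 0.78. The Ccl8 call was lost without any one of 9 arrays, all but NCFM 4 h array 2 and NCFM 18 h array 1 (values 0.7 to 0.92).

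Adhesion and sugar transport genes were also among the faded rises. Slc2a6, a hexose transporter of lysosomes, had 3921, 5021 and 6226 with NCFM at 4 h and 1826, 1577 and 1391 at 18 h, against 1709 to 2163 over the 5 control arrays. Its difference was -1.58 ± 0.25 (adjusted p = 0.00705). It was the 1 gene called of 26 in the glycolysis and hypoxia list (3.85%, near the 3.4% of all genes). That list's median was 0.44, and with the block 2 of its genes were called higher and 1 lower. Of 27 integrin and adhesion genes 4 (14.8%) were called lower, beside 3.4% of all genes. Icam1 and Vcam1 were faded rises, while Cd9 and Mmp8 were late falls, with no rise called at 4 h. Cd9, a tetraspanin gene, had -0.82 ± 0.16 (adjusted p = 0.0166). Icam1 and Vcam1, ligands of leukocyte integrins, had -0.68 and -0.94. Icam1 lost the call without any one of 7 arrays (NCFM 4 h array 2, all NCFM 18 h arrays, control 4 h arrays 1 and 2 and control 18 h array 2; values -0.79 to -0.55). Vcam1 lost it without any one of 6 (NCFM 4 h arrays 1 and 3, NCFM 18 h array 3, control 4 h arrays 1 and 2 and control 18 h array 2; values -1.04 to -0.83). With the array number as a block 1 adhesion gene was called higher and 10 lower, beside 587 and 1078 of all 18193 genes.

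Nitric oxide and haem genes had large values with wide errors. Nos2, the inducible nitric oxide synthase, had 258, 598 and 471 with NCFM at 4 h and 1580, 2051 and 2703 at 18 h. Its difference was 2.38 ± 0.68 (adjusted p = 0.0824), which passed with the array number as a block (adjusted p = 0.026). Hmox1, haem oxygenase, had 3387, 7894 and 11374 at 4 h and 11008, 15853 and 14633 at 18 h, with a difference of 1.91 ± 0.68 (adjusted p = 0.176, and 0.0232 with the block). Of 22 genes of the antioxidant and iron list Hamp and Lcn2 were called higher and Tfrc, the transferrin receptor that imports iron, lower. These were 13.6% of the list, beside 3.4% of all genes. With the block 5 of that list were called higher and 2 lower, beside 587 and 1078 of all 18193 genes. Tfrc had 1147, 1037 and 1172 with NCFM at 4 h and 414, 296 and 279 at 18 h, a difference of -1.41 ± 0.27 (adjusted p = 0.0166). It lost the call without NCFM 18 h array 2, control 4 h array 2 or control 18 h array 1 (values -1.58 to -1.3), and a dim probe set gave 0.01.

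Single genes were called in several other lists. Psmd11, a subunit of the proteasome lid, had 2487, 2397 and 2846 with NCFM at 4 h and 4327, 4524 and 4482 at 18 h, against 2171 to 2434 over the 5 control arrays. Its difference was 0.84 ± 0.1 (adjusted p = 0.0019). It was the 1 gene called of 26 proteasome genes (3.85%, near the 3.4% of all genes), whose median was 0.25. With the array number as a block 5 of the 26 were called higher, beside 587 of all 18193 genes. Psmd11 was not called on the mean of its 8 probe sets, which ran from -0.06 to 0.84. Plat, the tissue plasminogen activator, had 180, 231 and 298 with NCFM at 4 h and 749, 749 and 593 at 18 h, with a difference of 1.4 ± 0.28 (adjusted p = 0.0196). It lost the call without NCFM 18 h array 2, control 4 h array 2 or control 18 h array 1 (values 1.08 to 1.72). Ndufv1, a subunit of respiratory complex I, had -0.69 ± 0.17 (adjusted p = 0.0486). It was the 1 gene called of 31 for oxidative phosphorylation (3.23%, near the 3.4% of all genes), and the list's median was -0.06. With the block 6 of the 31 were called lower, beside 1078 of all 18193 genes. Ndufv1 lost the call without any one of 9 arrays, all but NCFM 18 h array 1 and control 18 h array 2 (values -0.93 to -0.46). It also lost the call under quantile normalization and on the mean of its probe sets.

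Further genes known from this response had differences that were not called. Tlr2, the receptor for bacterial lipoproteins, had -1.21 (adjusted p = 0.234, and 0.0228 with the block), and Cd86, a co-stimulatory ligand, had 0.88 (adjusted p = 0.173). Another probe set of Cd86 gave -0.15. Il1b, an inflammasome-processed cytokine, had -0.86 ± 0.98 and Il10, an anti-inflammatory cytokine, 0.81 ± 0.47 (adjusted p = 0.784 and 0.472). Sqle, an enzyme of cholesterol synthesis, had -1.25 ± 0.37 (adjusted p = 0.0994, and 0.0399 with the block).

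Cell cycle genes could not be resolved. Of 39 measured 0 were called in limma's fit, and 2 were called lower with the array number as a block. The list's median difference was -0.64, and it was -1.42 without control 18 h array 2 and 0.08 without control 18 h array 1. The lowest value was that of Rrm2, a subunit of ribonucleotide reductase, at -2 (adjusted p = 0.584). Without the arrays numbered 1 the list's median was -0.08.

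Of the 35 pathway lists, which were chosen with earlier results of these data known, 27 had a median difference below 0. Counts of called members stand beside 3.4% of all 18193 genes, with 1.19% higher and 2.22% lower. With the array number as a block 1665 of these genes were called. No member was called in 5 lists, those of interferon-inducible GTPases, signal feedback inhibitors, class II presentation, inflammasome and cell death, and cell cycle and DNA replication. With the array number as a block all 5 held calls, with 3, 2, 1, 3 and 2 genes in that order. Ribosome biogenesis had 10 of 25 members called and 13 with the block. Complement and coagulation had 1 higher and 2 lower of 20, and 3 higher and 8 lower with the block.

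**Figure D5:**
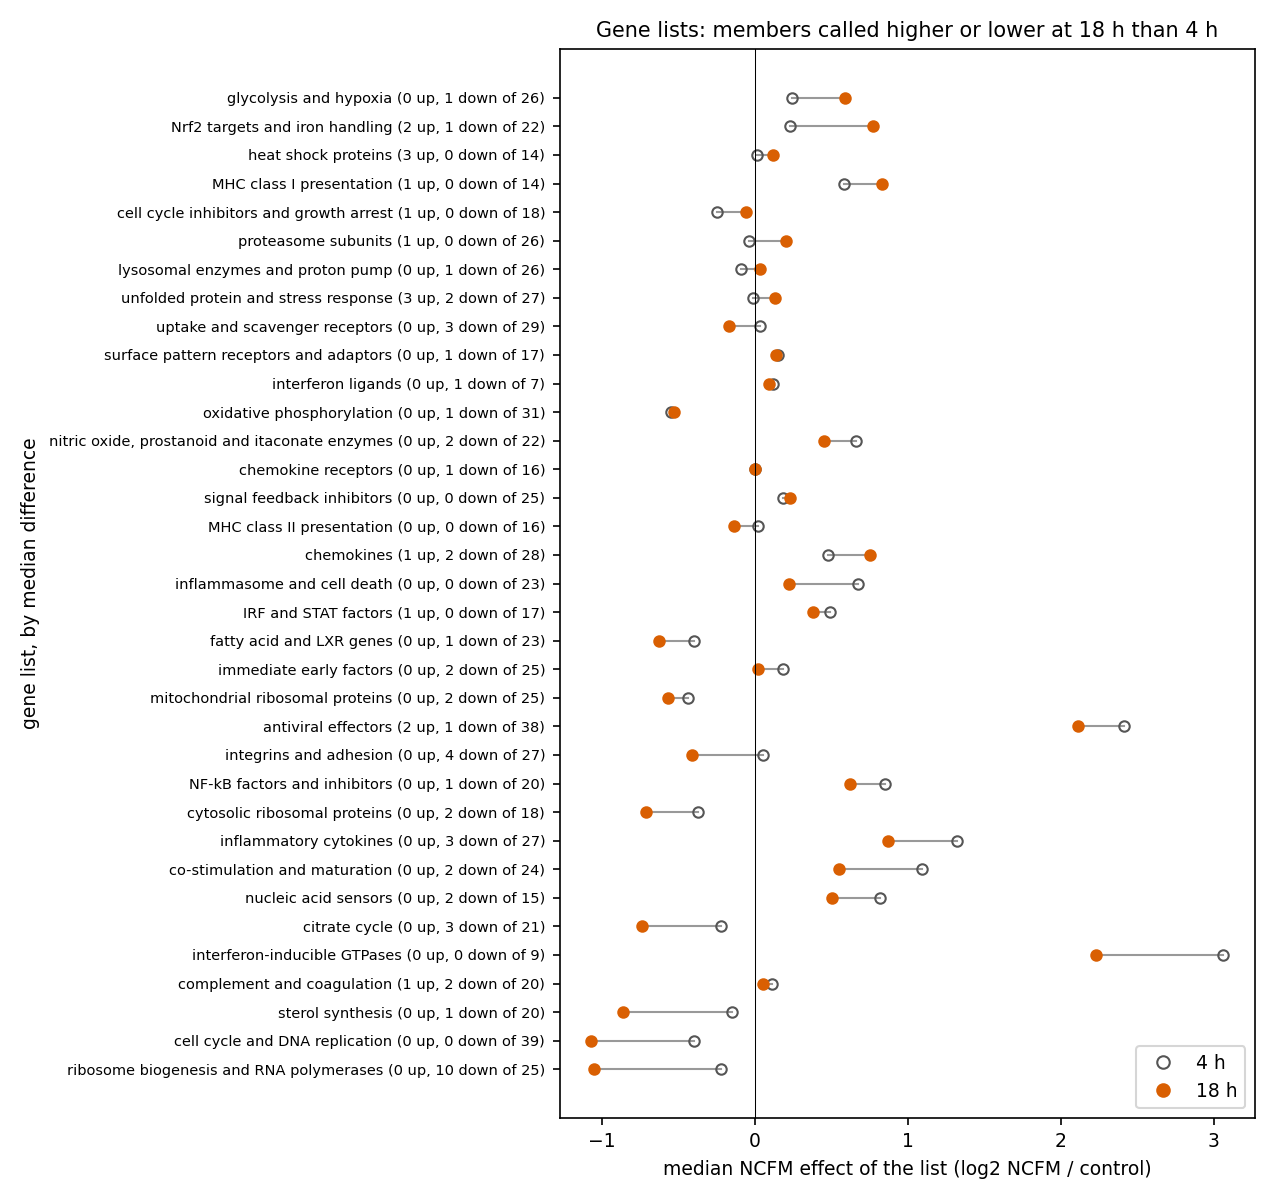
Median NCFM effect (log2 NCFM over control) of each of the 35 pathway lists at 4 h (open circles) and 18 h (filled circles), ordered by the median difference, with the number of members called higher and lower in brackets. Ribosome biogenesis has the lowest median difference (-0.82) and 10 of its 25 members called lower.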

How the data were processed

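Transcript levels came from 16 single-channel arrays in 6 groups. The authors deposited 45101 probe set values on a linear intensity scale, already normalized between arrays to judge by the like medians of the deposited columns (162 to 167). The method of summary and normalization: not given in the sources used here. Precision is limited by the small number of arrays.

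Values were put on the log2 scale. Of the probe sets, 34945 name a single gene, 932 name several and 64 are controls. The brightest one stood for each of 18193 genes (9010 genes had a choice), with names updated from the reference gene table where possible (34741 probe sets). The 6 group means of all 16 arrays were fitted in limma 3.58.1 (R 4.3.3, lmFit and eBayes, 10 residual degrees of freedom), and adjusted p-values in the text are from that fit unless another is named. Figures used matplotlib 3.10.9.

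The members and lists were chosen with earlier results of these data known. The 35 pathway and 11 cell type lists hold 926 genes, of which 836 were measured. Named genes are the 8 largest differences of faded rises, faded falls, late rises, late falls and reversed effects, and the 5 largest of grown rises and deepened falls. Each had to be called, reach the median of all genes in a group, and have NCFM arrays that did not overlap between the times. List members could be named as well.

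The replicate block rests on a check of deviations from group means across genes. All 15 pairs of arrays with the same number correlated, at 0.19 to 0.75 (median 0.4), while the 30 pairs of different numbers ran from -0.75 to 0.73 (median -0.26). The numbers therefore pair the samples, and the main fit does not use this pairing. It called 619 genes, beside 1665 with the block. Calls lost on leaving out an array are from the fit without the block. The 18 h control has 2 arrays, whose deviations mirror each other, and its array 2 had 0.73 with control 4 h array 3. Blocked values are given where they change a call or a count by over 1.5 times. Alternatives chosen after seeing the data were arrays 1 and 2 alone with the block, and all arrays but those numbered 1. The remaining ones are in the closing section.

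Tested on simulated data for this difference (5 runs, 200 of 18193 genes changed), the fit recovered 74.2% of changes of size 1 and 92.4% of size 2, with 4.45% false calls. The simulation held no effect shared by arrays of one number.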

Additional observations from a re-analysis of the deposited data

Results flagged for a closer look

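The 8 reversed genes named by size had NCFM effects called in opposite directions at the 2 times, and the difference itself was tested in limma. Fall turned to rise in Ddit4 (3.19), Ankrd37 (2.58), Ddit3 (2.53), H1f2 (2.03), Gm13012 (2.03) and Zfp52 (1.6). Gm13012 had 364, 397 and 263 with NCFM at 4 h and 1054, 1280 and 1088 at 18 h. Rise turned to fall in Ikzf1 (-1.81) and Septin11 (-1.67). Other probe sets gave smaller differences of the same sign, at -0.36 for Ikzf1, 0.22 for Zfp52 and 0.7 for Ddit3. Those of H1f2 gave 1.97 and 0.09, and those of Septin11 -1.08 to -0.21. All 8 genes were called with the array number as a block. All but Ikzf1 were called without each of the 11 arrays in turn, and Ikzf1 missed the threshold without control 18 h array 2.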

How the results depend on the processing

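Counts are given in the order all called, higher, lower, faded rises, faded falls, late rises, late falls and reversed. With the replicate block they were 1665, 587, 1078, 233, 238, 219, 530 and 116. At an adjusted p under 0.01 they were 160, 48, 112, 29, 21, 18, 64 and 11. Only arrays 1 and 2 (4 residual degrees of freedom) gave 13, 6, 7, 2, 0, 2, 2 and 5, and with the block 208, 74, 134, 22, 10, 33 and 59 before the reversed effects. Without the arrays numbered 1 they were 1593, 459, 1134, 284, 178, 164, 502 and 141. Spike-in centring gave 134 higher and 690 lower genes, with 166 faded rises, 47 faded falls, 58 late rises and 411 late falls. Quantile normalization gave 157 late rises. Leaving out 1 array at a time gave 302 to 791 in all, 95 to 294 higher, 207 to 497 lower, 49 to 126 faded rises, 35 to 104 faded falls, 36 to 140 late rises, 104 to 288 late falls and 20 to 58 reversed. The total moved by over 1.5 times without control 4 h array 2 (302), NCFM 18 h array 2 (312) and control 4 h array 3 (364). The causes were not tested, apart from the fewer arrays or the stricter threshold. Background subtraction, the mean of probe sets, dim genes left out, the 11 arrays alone and the trend with robust variance gave totals of 575, 614, 727, 517 and 525.

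Of the 98 called genes named, the block lost 0, quantile normalization 6, spike-in centring 5, background subtraction 15 and the mean of probe sets 14, and 54 stayed called without each of the 11 arrays. Only arrays 1 and 2 lost 92, with the block 66, an adjusted p under 0.01 57, the 11 arrays alone 21, and leaving out the arrays numbered 1 11. No called gene named reversed its sign in any setting run. Genes without a call did, among them Ptgs2 (0.44 with only arrays 1 and 2), Cxcl10 (up to 0.47), Il1b (up to 0.21), Hspa5 (up to 0.13) and Rsad2 (up to 1.3) with 1 array left out, and Chac1 (down to -0.08). Of the 50 chosen by size, 30 stayed called without each array.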

Other observations

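Genes whose control level moved between the times are a small set outside the named rule. Dpp7, a lysosomal peptidase gene, had a difference of -1.07 (adjusted p = 0.0174 in limma), with the NCFM level moving by -0.51 and the control level by 0.56. Mfap3 had 1.05 (adjusted p = 0.0204), with 0.5 and -0.55. Slc29a1, the nucleoside transporter, had -0.91 (adjusted p = 0.00299), with -0.41 and 0.5. Sh3bp5 had 0.93 (adjusted p = 0.0289), with 0.43 and -0.5. These 4 were chosen after their values were seen. No control change was called for any of them.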
